A study of Mus musculus with 16 samples.

Results

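Ddit4, Sesn1, Foxo3, Pdk4, Rbl2, Cdkn1a and Ccng2 restrain growth, cell division or glucose use, and they were followed here in inner ears that lack the orphan nuclear receptor COUP-TFI (Nr2f1). The genes were selected by the difference between COUP-TFI-/- and wild-type inner ears in these same chips, so that difference is given as a description, without a test. All probe sets of the platform annotation that carry one of the 7 gene symbols were used. These were 8 of the 12422 non-control probe sets, and the 7 genes are among 8251 genes that the annotation names. Cdkn1a had 2 probe sets and each of the other genes had 1.

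RNA came from whole inner ears of newborn (P0) mice of strain 129SvEv, either homozygous for the COUP-TFI null allele (COUP-TFI-/-) or wild-type. Each RNA sample was a pool of several inner ear samples, since a newborn ear yields little RNA, and the number of animals in a pool is not given in the sources used here. There were 2 pools per genotype. The methods describe 2 sets of hybridizations at different times, each with 1 pool per genotype on 2 Affymetrix MG-U74Av2 chips, giving 4 COUP-TFI-/- and 4 wild-type chips. The labels number the chips A1, A2, B1 and B2, and the letter was read here as the set and pool and the number as the duplicate. Chips of a genotype that share a letter correlated with r of 0.996 to 0.997, and those with different letters with 0.979 to 0.987. The null allele is present in every cell of the mouse, and the RNA is a mixture of sensory epithelium, nerve, cartilage, bone, muscle, fat and blood, so fewer cells of a type and less RNA per cell cannot be told apart. The authors deposited each chip as GCRMA values, which are on a log2 scale, and as dChip values, which are linear signals. Below, a level or a difference is a log2 GCRMA value unless dChip is named, and a difference of 1 is a doubling.

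The products of these genes meet in a few pathways. FOXO3 is a transcription factor that insulin and growth factors hold out of the nucleus through the kinase Akt. When Akt signalling is low it enters the nucleus and activates genes for cell cycle arrest, fasting metabolism and stress resistance, among which Pdk4, Ccng2, Rbl2, Cdkn1a and Sesn1 have been described in various tissues. DDIT4 (also called REDD1) and SESN1 lower the activity of mTORC1, the kinase complex that drives protein synthesis and cell growth, DDIT4 through the TSC complex and SESN1 through the GATOR complexes. Both genes respond to stress, Ddit4 also to glucocorticoids and Sesn1 to p53. PDK4 phosphorylates and inhibits the pyruvate dehydrogenase complex and so spares glucose. CDKN1A (p21) inhibits cyclin-dependent kinases, RBL2 (p130) is a pocket protein that represses E2F-driven genes in resting cells, and CCNG2 is an unconventional cyclin linked to cell cycle exit. In the newborn cochlea hair cells and supporting cells have left the cell cycle, while cartilage, bone and blood cells still divide.

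Nr2f1 itself checked the labels. Its levels were 4.68 to 5.27 on the COUP-TFI-/- chips and 7.74 to 8.83 on the wild-type chips, a difference of -3.37 (adjusted p = 5.9e-11, limma). Chip medians lay between 7.20 and 7.23 for GCRMA and between 291 and 305 for dChip. The median SD between duplicates was 0.09 and the median absolute difference was 0.06 between genotypes and 0.16 between sets. The median genotype difference over all probe sets was below 0.01 in size with GCRMA (0.00077).

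The promoters of the 7 genes were read from the RefSeq annotation of GRCm38.p6, as 300 bases that run from 250 bases before the annotated start of a transcript to 50 bases from the start on. All 7 genes matched by symbol, with 2 promoters each for Sesn1 and Cdkn1a and 9 promoters in all. They were searched on both strands for the half-site of COUP-TF and other nuclear receptors (AGGTCA), the FoxO core (GTAAACA), its short form (AAACA, which is part of the core), the glucocorticoid receptor inverted repeat (ACANNNTGT), the E-box (CACGTG) and the p53 half-site. The first, for Ddit4, is shown for the gene with the highest genotype difference, and the other 3 for the matches they hold. Capitals mark matches, every sequence runs 5′ to 3′ on the strand of its gene, and an all lower-case promoter had no match.
Ddit4, minus strand of chr10:59951721-59952020: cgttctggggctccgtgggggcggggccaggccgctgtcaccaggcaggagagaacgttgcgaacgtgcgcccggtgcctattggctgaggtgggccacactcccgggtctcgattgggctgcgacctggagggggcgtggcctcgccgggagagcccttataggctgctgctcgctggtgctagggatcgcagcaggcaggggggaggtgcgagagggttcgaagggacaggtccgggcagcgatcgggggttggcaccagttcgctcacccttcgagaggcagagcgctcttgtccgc
Sesn1, plus strand of chr10:41810324-41810623: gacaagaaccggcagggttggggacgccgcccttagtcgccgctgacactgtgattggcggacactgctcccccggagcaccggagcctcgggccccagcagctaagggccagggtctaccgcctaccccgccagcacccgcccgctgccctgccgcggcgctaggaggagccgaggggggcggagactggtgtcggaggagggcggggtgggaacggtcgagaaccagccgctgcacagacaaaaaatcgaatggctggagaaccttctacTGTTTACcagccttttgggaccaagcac
Cdkn1a, plus strand of chr17:29090729-29091028: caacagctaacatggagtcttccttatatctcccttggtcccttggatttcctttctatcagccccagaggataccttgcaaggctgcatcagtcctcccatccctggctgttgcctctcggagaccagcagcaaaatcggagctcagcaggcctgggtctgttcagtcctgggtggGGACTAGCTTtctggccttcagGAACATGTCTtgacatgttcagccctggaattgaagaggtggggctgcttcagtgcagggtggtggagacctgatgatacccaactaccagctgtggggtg
Ccng2, plus strand of chr5:93267323-93267622: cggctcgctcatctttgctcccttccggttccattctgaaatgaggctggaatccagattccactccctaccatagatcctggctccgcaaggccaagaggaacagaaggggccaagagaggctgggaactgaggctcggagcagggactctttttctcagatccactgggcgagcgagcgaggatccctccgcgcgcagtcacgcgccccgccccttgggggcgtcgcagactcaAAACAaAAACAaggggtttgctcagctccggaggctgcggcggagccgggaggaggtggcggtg

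The first Sesn1 promoter held a FoxO core, TGTTTAC on the printed strand, at 22 to 28 bases from the start, which is counted as 0. The core was found in 3.65% of all 32851 promoters of the same length. The Ccng2 promoter held a pair of short cores at -14 to -10 and -8 to -4 from the start, a match found in 50.5% of promoters. The first Cdkn1a promoter had 2 matches to the p53 half-site (8.36% of promoters), GGACTAGCTT and GAACATGTCT, at -73 to -64 and -51 to -42 from the start. A second Sesn1 promoter, on the plus strand of chr10:41887189-41887488, had a p53 half-site, AAGCTTGTTT, and 2 short FoxO cores, of which the one at -168 to -164 shares its letters with the p53 match. None of the 9 promoters held AGGTCA (16.3% of promoters), a direct repeat of it with a spacer of 0 to 13 bases (0.158%), the glucocorticoid receptor repeat (6.85%) or the E-box (7.15%). A match describes letters in these windows only, and these chips do not measure binding. The authors searched wider regions and list conserved predicted COUP-TF sites near Ddit4, Sesn1 and Foxo3. By chromatin immunoprecipitation they report COUP-TFI at a site, among several conserved predicted ones, in the first intron of Foxo3 in newborn brain. By real-time RT-PCR they report higher Foxo3 in COUP-TFI-/- newborn cortex, but no significant change in COUP-TFI-/- embryonic fibroblasts. The 9 promoters had a GC content of 50.7% to 75%, against a median of 52.7% over all promoters.

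Of the mTORC1 restrainers, Ddit4 (probe set 103460_at; chromosome 10, 59949675 to 59951770) had the highest genotype difference of the 8 probe sets, closely followed by Sesn1. Its levels were 9.59 and 9.62 on COUP-TFI-/- chips A1 and A2 and 10.10 and 10.42 on B1 and B2, against 9.20, 9.14, 9.38 and 9.28 on the wild-type chips in the same order. All 4 COUP-TFI-/- chips lay above all 4 wild-type chips, and the COUP-TFI-/- pool of set B stood above the rest. The difference was 0.43 within set A and 0.93 within set B, with a mean of 0.68 (1.60-fold; SE from limma 0.11). The dChip signals of Ddit4 were 1080, 1101, 2047 and 2277 on COUP-TFI-/- chips A1, A2, B1 and B2, against 830, 836, 1278 and 1074 on wild-type chips. With dChip the groups overlapped, since wild-type chip B1 lay above both COUP-TFI-/- chips of set A, but within each set both COUP-TFI-/- chips were higher.

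Sesn1 (95731_at; chromosome 10, 41810574 to 41908436) encodes a sestrin. It read 9.99, 9.97, 9.999 and 10.10 on COUP-TFI-/- chips A1, A2, B1 and B2, against 9.25, 9.26, 9.44 and 9.40 on the wild-type chips in the same order. The COUP-TFI-/- chips lay close together and clear of the wild-type chips, of which those of set B were the higher pair. The difference was 0.72 within set A and 0.63 within set B, with a mean of 0.68 (1.60-fold; SE 0.10). With dChip the signals were 1219, 1134, 1223 and 1510 on COUP-TFI-/- chips and 749, 757, 984 and 926 on wild-type chips. The groups did not overlap in either normalization.

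Foxo3 (92958_at; chromosome 10, 42181845 to 42276695) lies on the same chromosome as Ddit4 and Sesn1. Its levels were 8.92, 8.80, 8.90 and 8.95 on COUP-TFI-/- chips A1, A2, B1 and B2 and 8.29, 8.51, 8.58 and 8.47 on wild-type chips. Every COUP-TFI-/- chip was above every wild-type chip, the lowest wild-type value being that of chip A1. The difference was 0.46 within set A and 0.40 within set B (mean 0.43, 1.35-fold; SE 0.10). The dChip differences were 0.40 and 0.45, with signals of 918 to 1117 in COUP-TFI-/- and 714 to 833 in wild-type inner ears.

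Pdk4 (102049_at; chromosome 6, 5483351 to 5496278), the brake on glucose oxidation, differed more in set B than in set A. It read 8.76, 8.54, 8.83 and 8.99 on COUP-TFI-/- chips A1, A2, B1 and B2, against 8.47, 8.42, 8.30 and 8.31 on wild-type chips. The COUP-TFI-/- chips were again all higher, by the least on chip A2. The difference was 0.20 within set A and 0.61 within set B, with a mean of 0.41 (1.33-fold; SE 0.11). With dChip it was 0.05 in set A, where the signals were 399 and 397 for COUP-TFI-/- and 384 on both wild-type chips, and 0.60 in set B, where they were 498 and 544 against 341 and 344.

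Among the cell cycle genes, Rbl2 (95617_at; chromosome 8, 91070057 to 91123844) read 6.57, 6.45, 6.39 and 6.42 on COUP-TFI-/- chips A1, A2, B1 and B2 and 6.28, 6.42, 6.13 and 6.11 on wild-type chips. One wild-type chip, A2, lay among the COUP-TFI-/- values. The difference was 0.16 within set A and 0.29 within set B (mean 0.23, 1.17-fold; SE 0.10). With dChip its signals were 138 to 159 in COUP-TFI-/- and 116 to 134 in wild-type inner ears and did not overlap.

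The 2 probe sets of Cdkn1a (chromosome 17, 29090979 to 29100722) gave different pictures. Probe set 94881_at read 8.68 on both set A chips and 9.12 on both set B chips of COUP-TFI-/-, against 8.48, 8.64, 8.98 and 8.71 on wild-type chips A1, A2, B1 and B2. Within each set the COUP-TFI-/- chips were higher, by 0.12 and 0.27 (mean 0.20, 1.15-fold; SE 0.10), but across sets the genotypes overlapped. Probe set 98067_at read 8.89, 8.92, 9.56 and 9.53 on COUP-TFI-/- chips A1, A2, B1 and B2, against 8.97 on both set A chips and 9.36 and 9.43 on the set B chips of wild-type. Its difference was -0.06 within set A and 0.15 within set B, with a mean of 0.05 (SE 0.10). With dChip the differences of 98067_at were 0.07 in both sets, and those of 94881_at were 0.19 and 0.26.

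Ccng2 (98478_at; chromosome 5, 93267573 to 93276231) had nearly the same level in both genotypes. It read 8.05, 8.15, 7.77 and 7.73 on COUP-TFI-/- chips A1, A2, B1 and B2, and 8.07, 8.00, 7.79 and 7.74 on wild-type chips. The chips fell by set and not by genotype. The difference was 0.06 within set A and -0.02 within set B (mean 0.02, 1.02-fold; SE 0.10), and with dChip it was 0.09 and -0.03.

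**Figure D1:**
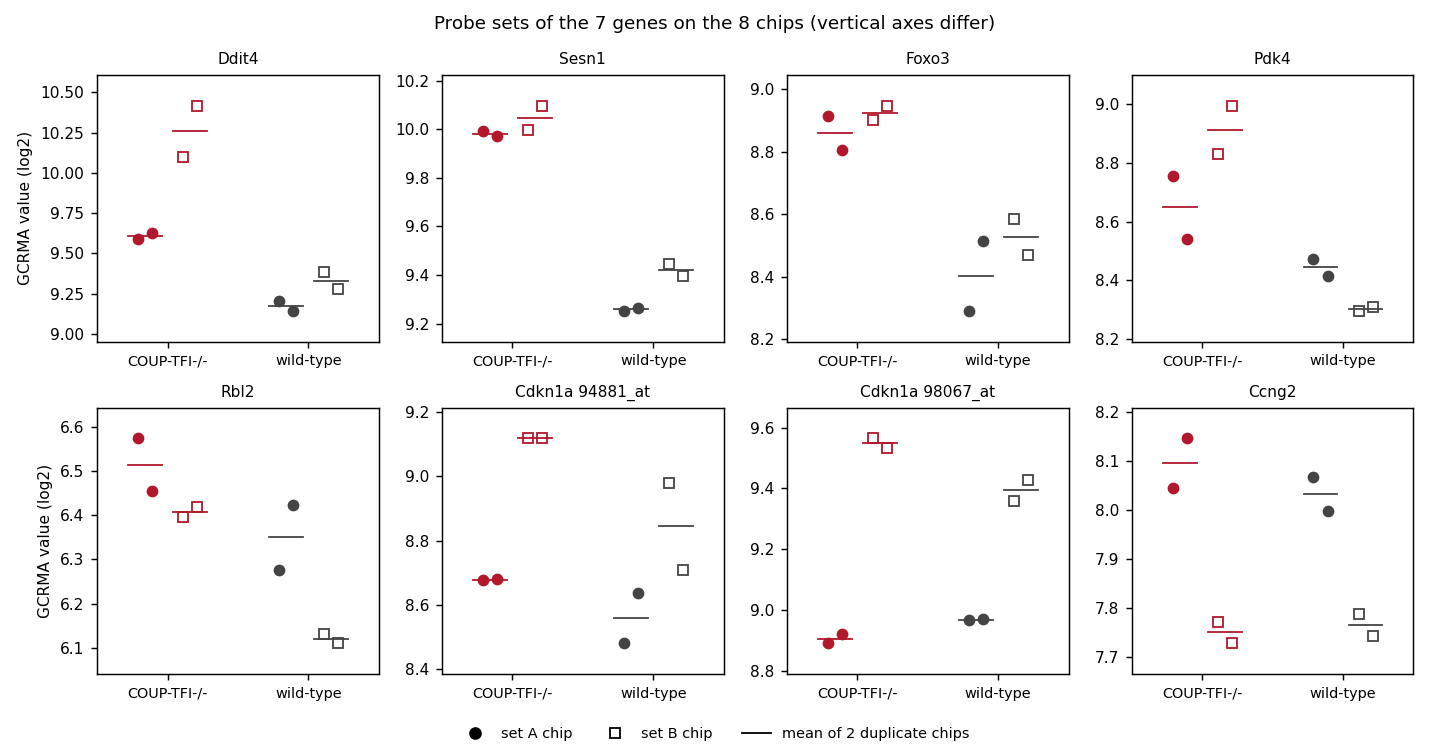
GCRMA values (log2, vertical axes, which differ between panels) of the 8 probe sets on each chip, COUP-TFI-/- at the left and wild-type at the right of each panel, with filled circles for set A, open squares for set B and lines for the mean of 2 duplicate chips. Ddit4, Sesn1, Foxo3 and Pdk4 have all 4 COUP-TFI-/- chips above all 4 wild-type chips, while both Cdkn1a probe sets and Ccng2 separate by set.

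In all, 4 of the 8 probe sets had every COUP-TFI-/- chip above every wild-type chip with GCRMA (Ddit4, Sesn1, Foxo3 and Pdk4), beside 1.35% of all probe sets. With dChip there were also 4 (Sesn1, Foxo3, Pdk4 and Rbl2), beside 1.04%. Ordered by genotype difference, the probe sets stood at places 12 (Ddit4), 13 (Sesn1), 38 (Foxo3), 46 (Pdk4), 283 (Rbl2), 407 and 3806 (Cdkn1a) and 4960 (Ccng2) of 12422. In the fit of all probe sets, 2 of the 8 (Ddit4 and Sesn1) were among the 9 called higher in COUP-TFI-/- at an adjusted p under 0.05 (0.0725% of 12422), and none was among the 4 called lower (0.0322%). These counts describe how the genes were chosen and are not evidence of a genotype effect. The median difference of the 8 probe sets was 0.32.

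**Figure D2:**
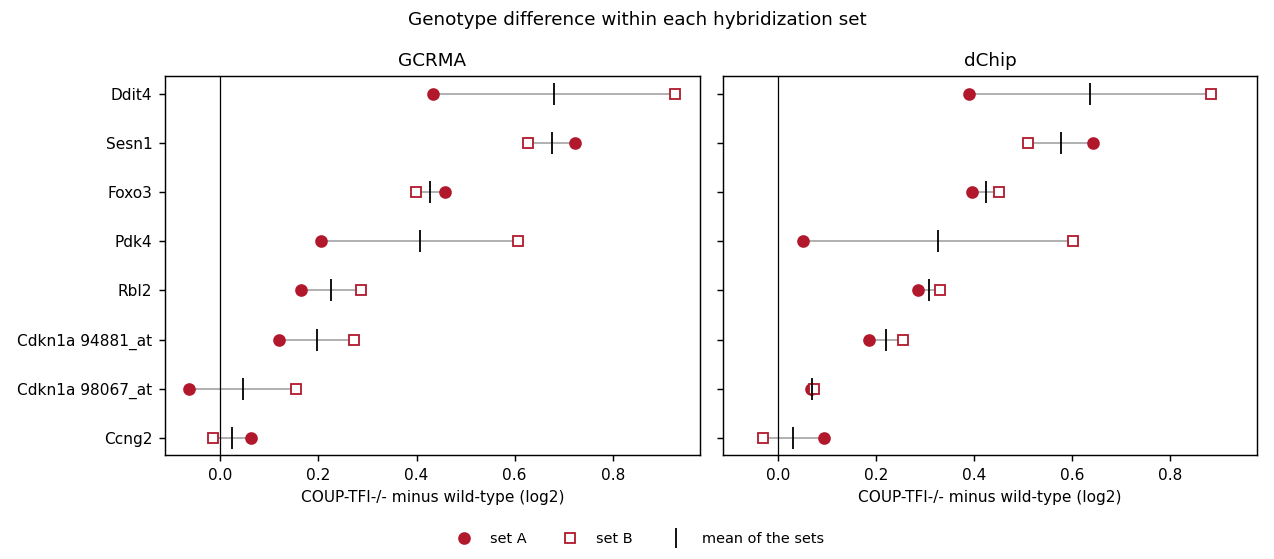
COUP-TFI-/- minus wild-type (log2, horizontal axis) for each probe set in set A (filled circles) and set B (open squares), with the mean of the sets as a bar, for GCRMA (left) and dChip (right). Ddit4 and Pdk4 lie further to the right in set B (0.93 and 0.61 with GCRMA) than in set A (0.43 and 0.20), while Sesn1 and Foxo3 have like values in both sets.

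Striated muscle RNA differed between the genotypes mainly in set B. The authors left out genes whose genotype difference depended on the time point, as possible tissue contamination from dissection. They report striated muscle classes as overrepresented among those genes. Of 26 striated muscle markers, 24 were higher in COUP-TFI-/- over both sets, with a median difference of 0.37, and 2 myosin heavy chains of developing muscle were called, Myh8 (0.98, adjusted p = 0.0092, limma) and Myh3 (0.80, adjusted p = 0.014). In set A the median was 0.01 and 15 of 26 were higher, and in set B it was 0.79 and 24 of 26 were higher. Myh8 and Myh3 also differed in set A, by 0.56 and 0.49, against 1.41 and 1.11 in set B. The summed dChip signal of the markers was 35380 to 36377 on COUP-TFI-/- chips and 37260 to 37608 on wild-type chips of set A, and 41977 to 43990 and 26746 to 26817 on those of set B. Pdk4 is abundant in muscle, and the differences of Ddit4 and Pdk4 were larger in set B by 0.49 and 0.40. Those of Sesn1 and Foxo3 were smaller in set B, by -0.10 and -0.06, though with dChip that of Foxo3 was 0.06 larger there. In set A, where the muscle median was 0.01 but Myh8 and Myh3 were higher, the differences were 0.43 for Ddit4, 0.72 for Sesn1, 0.46 for Foxo3 and 0.20 for Pdk4 (0.05 with dChip). Fat markers moved the other way, with 4 of 5 lower in COUP-TFI-/- (median -0.29) and summed signals of 1592 to 1734 against 1791 to 2047. Of these, Ucp1, the uncoupling protein of brown fat, was called lower (-1.26, adjusted p = 0.00026). No gene was called among the markers of hair and supporting cells (13 genes, median -0.01), neurons and Schwann cells (10, -0.01), cartilage and bone (7, 0.13) or blood and immune cells (15, 0.08). Within sets, the summed dChip signal of cartilage and bone markers was higher in COUP-TFI-/- in both (21889 against 19707 in set A, 26110.5 against 23751 in set B). That of hair and supporting cell markers was lower in both (6256 against 7063, 5105 against 5219). Chips did not overlap within a set, but they are duplicates of 1 pool per genotype. Gene by gene (GCRMA), the markers did not all follow these sums. Of 13 hair and supporting cell markers, 7 were higher in COUP-TFI-/- for set A (median 0.0015) and 4 for set B (-0.06). Of 7 cartilage and bone markers, 7 were higher for set A (median 0.12) and 3 for set B (-0.005). The sums of nerve markers overlapped in set B and were lower in COUP-TFI-/- in set A (10292 against 10713). Those of blood and immune markers overlapped in set A and were higher in COUP-TFI-/- in set B (22040 against 21149). At an unadjusted p under 0.05 (limma), 17 of 26 striated muscle markers were higher and none lower, and 4 of 5 fat markers were lower and none higher. Of blood and immune markers 3 of 15, and of cartilage and bone markers 1 of 7, were higher and none lower. Of all 8251 named genes, 217 were higher and 138 lower at that threshold. No nerve marker passed that threshold. The labelled tissue showed in Tecta (8.86 in COUP-TFI-/- and 8.997 in wild-type) and Otog (8.84 in both), which encode proteins of inner ear matrices. Of the 13 hair and supporting cell markers, 2 were lower at an unadjusted p under 0.05 and none higher, Tectb (-0.48, adjusted p = 0.11, limma) and Sox2 (-0.36, adjusted p = 0.43), both named after their values were seen. The part of these cell types in the differences of the 7 genes was not tested.

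The difference between hybridization sets was not used to choose the genes and was tested with limma over all 12422 probe sets, with genotype in the fit. In it 1 of the 8 probe sets was called higher in set A (13.6% of all probe sets were) and 3 were called higher in set B (12.2%). Ccng2 was higher in set A by 0.31 ± 0.10 (SE, 2 pools per set; adjusted p = 0.028, limma), by 0.35 in COUP-TFI-/- and 0.27 in wild-type inner ears. All 4 set A chips were above all 4 set B chips in both normalizations. The other called probe sets lay on the opposite side. Cdkn1a differed, as set A minus set B, by -0.53 ± 0.10 at 98067_at (adjusted p = 0.0011, limma) and -0.36 ± 0.10 at 94881_at (adjusted p = 0.013). All set A chips were below all set B chips for both, except that with dChip the sets overlapped at 94881_at. Ddit4 had -0.40 ± 0.11 (adjusted p = 0.017), made up of -0.65 in COUP-TFI-/- and -0.16 in wild-type.

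No set difference was called for Sesn1 (-0.11, adjusted p = 0.42, limma), Foxo3 (-0.09, 0.51), Pdk4 (-0.06, 0.73) or Rbl2 (0.17, 0.22). Pdk4 had set differences of opposite sign in the genotypes, -0.26 in COUP-TFI-/- and 0.14 in wild-type. With dChip, Ddit4 was the one probe set called, at -0.74 (adjusted p = 0.036), beside 4.9% of probe sets called higher in set B and 6.76% higher in set A. Ccng2 then had 0.36 (adjusted p = 0.083) and Cdkn1a -0.37 (0.073) and -0.21 (0.22). Each set held 1 pool per genotype, so a difference between pools of animals and one between hybridization times cannot be told apart.

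**Figure D3:**
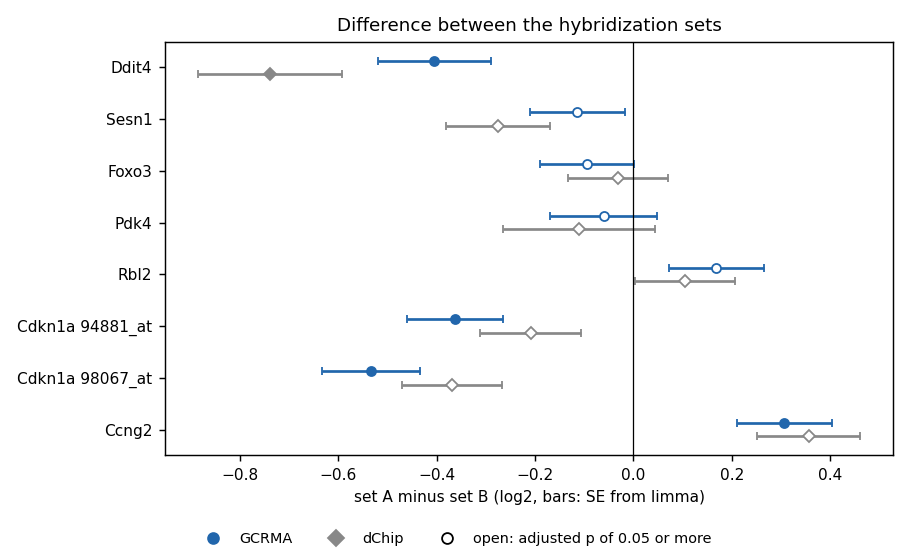
Set A minus set B (log2, horizontal axis) for each probe set, with blue circles for GCRMA, grey diamonds for dChip, bars for the SE from limma and open symbols for an adjusted p of 0.05 or more. Ccng2 lies at 0.31 and 0.36, and Ddit4 and both Cdkn1a probe sets lie below 0 in both normalizations.

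The 7 genes were set beside other genes of their pathways, in 8 lists that leave the 7 genes out, with 1 probe set per gene. A gene can stand in more than 1 list. Over all 8251 named genes, 8 were called higher and 3 lower, 217 were higher and 138 lower at an unadjusted p under 0.05, and the median difference was 0.004. Over all 12422 probe sets the unadjusted threshold gave 2.61% higher and 1.97% lower. No gene was called in 7 of the 8 lists with limma, in either normalization, and the numbers at an unadjusted p under 0.05 are given for each. With dChip the 7 lists had at most 1 gene each at that threshold.

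Upstream of FOXO3, in the FoxO family and the insulin-PI3K-Akt branch, 2 of 27 genes were higher and 1 lower at the unadjusted threshold, and the median was 0.07 (0.007 with dChip and 0.04 over all probe sets of the genes). Sgk1, a kinase that like Akt phosphorylates FoxO proteins, had 0.35 ± 0.10 (SE) with 0.32 in set A and 0.38 in set B (adjusted p = 0.47, limma). Igf1r, the receptor for insulin-like growth factors, had 0.25 (adjusted p = 0.98), and Ywhab, a 14-3-3 protein of the kind that binds phosphorylated FoxO, had -0.22 (0.98). Foxo4, the one other FoxO gene of the list on the chip, had -0.10 (adjusted p = 1.00). Of 28 further FoxO-responsive genes, 1 was higher and 1 lower at the unadjusted threshold (median 0.03). These were Bnip3, a mitophagy receptor, at 0.21 and Pck1, an enzyme of gluconeogenesis, at -0.30.

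None of 23 genes of mTORC1 and its restraint passed even the unadjusted threshold at its brightest probe set (median 0.02), and 1 probe set did when all probe sets of the genes were counted. Mtor, the kinase itself, had -0.07, and Tsc1 and Tsc2, through which DDIT4 acts, had 0.02 and 0.06. The lowest unadjusted p-values were those of the translation initiation factors Eif4e (-0.24) and Eif4b (0.15), of Eif4ebp2 (0.13), a repressor of translation that mTORC1 inactivates, and of the GTPase Rragd (-0.13). The Eif4e difference had opposite signs in the sets, 0.19 in set A and -0.67 in set B. Likewise none of 17 p53-responsive genes passed the unadjusted threshold (median 0.05). Gadd45a, a stress-induced growth arrest gene, had 0.19, Apaf1, of the apoptosome, 0.19, and Mdm2, the p53 ubiquitin ligase, -0.15. Sesn1 and Cdkn1a, themselves p53-responsive, had 0.68 and at most 0.20.

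Among 23 CDK inhibitors, pocket proteins and antiproliferative genes, 1 was higher and 1 lower at the unadjusted threshold (median 0.004). Ndrg1, a stress-responsive gene of differentiated cells, had 0.29 and Cdk2ap1, an inhibitor of CDK2, had -0.29. The pocket protein genes Rb1 and Rbl1, relatives of Rbl2, had -0.03 and -0.02, the CDK inhibitor genes Cdkn1b and Cdkn1c had 0.20 and -0.11, and Ccng1, the relative of Ccng2, had 0.11. Of 48 E2F-driven cell cycle genes 38 were lower in COUP-TFI-/- and 10 higher, beside 3967 lower and 4284 higher of all 8251 named genes. The median was -0.06, with -0.03 in set A and -0.08 in set B. At the unadjusted threshold 3 of the 48 were lower and none higher. The 3 were Mcm5, of the replicative helicase (-0.26), Fen1, a flap endonuclease (-0.25), and Pcna, the sliding clamp (-0.26). The adjusted p of Mcm5, the lowest of the list, was 0.83 (limma).

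Of 20 genes of the pyruvate dehydrogenase switch and of PPAR-responsive metabolism, 1 passed the unadjusted threshold (median -0.02). This was Pdk3, another pyruvate dehydrogenase kinase, which was lower by the same measure that was higher for Pdk4, with -0.35 in set A and -0.16 in set B (adjusted p = 0.91, limma). Pdk1 had -0.04 and Pdha1, the catalytic subunit that these kinases phosphorylate, had 0.15.

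The glucocorticoid-responsive genes were the one list with called genes. Like the others, this list was chosen with earlier results of these data known, so its counts are a description. Ddit4 and other genes here respond to glucocorticoids in many tissues. Of 23 genes, 4 were called higher and none lower, 15 were higher and 1 lower at the unadjusted threshold, and the median was 0.35, with 0.24 in set A and 0.34 in set B. Zbtb16, a transcriptional repressor, averaged 9.45 ± 0.27 in COUP-TFI-/- and 8.42 ± 0.39 in wild-type inner ears (SD, 2 pools each), with a difference of 1.03 ± 0.10 (SE; adjusted p = 0.00011, limma). Fkbp5, a chaperone of the glucocorticoid receptor, had 0.82 (adjusted p = 0.0020), the sulfotransferase Sult1a1 0.64 (0.014) and the metallothionein Mt2 0.61 (0.039). The difference was present in both sets for all 4 genes, at 0.42 or more in set A and 0.74 or more in set B. None of the 4 was called with dChip, where the differences were 0.96, 0.65, 0.66 and 0.27, and there 8 of the 23 passed the unadjusted threshold. Cebpd (0.67, adjusted p = 0.055), Lpin1 (0.49), Per1 (0.41) and Nfkbia (0.39) were next and were not called.

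**Figure D4:**
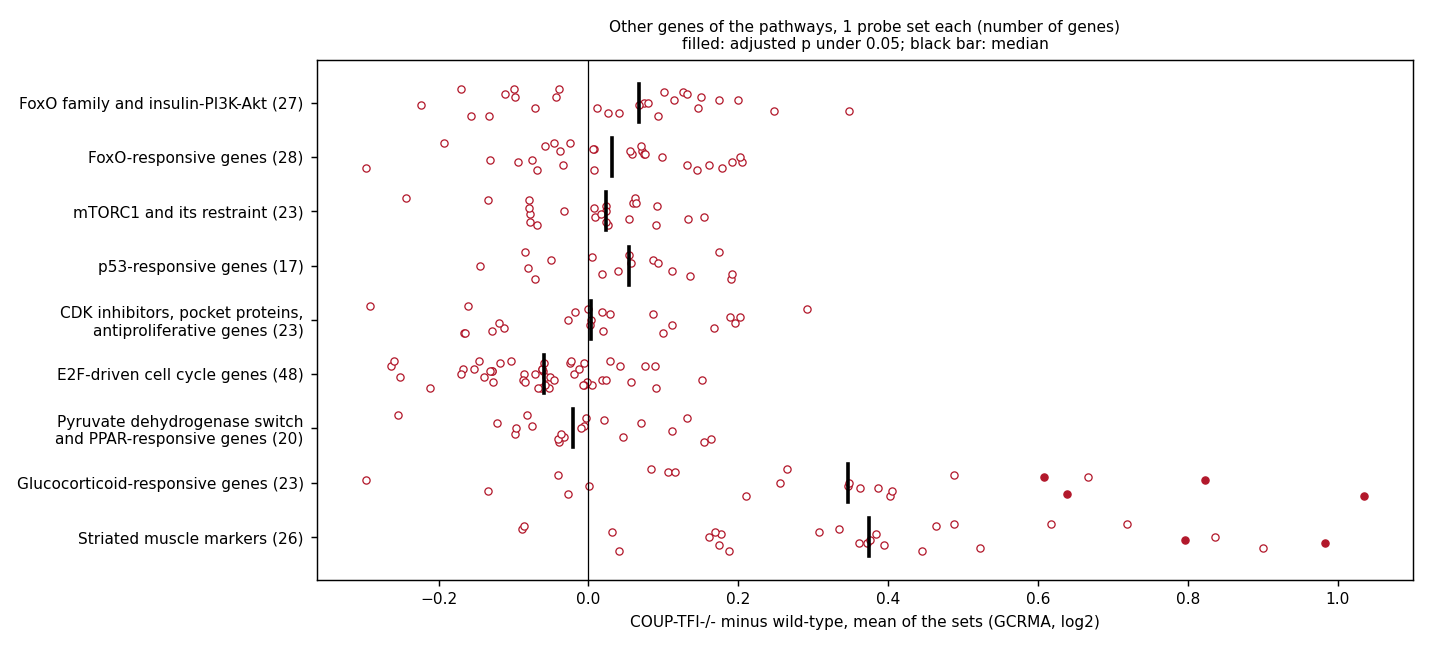
COUP-TFI-/- minus wild-type (GCRMA, log2, horizontal axis) for every other gene of the 8 pathway lists and of the striated muscle markers, with filled points for an adjusted p under 0.05 and black bars for list medians. The medians of the glucocorticoid-responsive and muscle lists lie at 0.35 and 0.37, and those of the other 7 lists lie between -0.06 and 0.07.

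To find the genes whose pattern over the chips was most like that of each member, the mean of each set was subtracted and Pearson's r was taken over the 8 chips. The chips share 4 pools, and r is a description. Ddit4 was most like Myh3 (r = 0.992) and Cebpd (0.992), a muscle gene and a glucocorticoid-responsive gene. Sesn1 was most like Col6a1 (0.989), a collagen VI chain, and Zbtb16 (0.984), and Foxo3 like Col11a2 (0.981), a cartilage collagen, and Eif4b (0.977). With dChip the r of Sesn1 with Zbtb16 was 0.979 and that of Foxo3 with Col11a2 was 0.659. Pdk4 was most like the acute phase gene Serpina3n (0.984) and Klhl21 (0.980), and Rbl2 like Sat1 (0.983) and Man2a1 (0.981). The nearest genes of the Cdkn1a probe sets were Bms1 and Tbx15 for 94881_at and Gatd3a and Cpxm2 for 98067_at, and those of Ccng2 were Kif1a and Mtcp1. The last 4 pairs had r above 0.97 with GCRMA but between -0.43 and 0.68 with dChip.

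Between members, the same measure was highest for Sesn1 with Foxo3 (0.960) and for Ddit4 with Pdk4 (0.959). These were also the pairs alike in how their genotype difference fell over the sets. Within the 5 probe sets of Ddit4, Sesn1, Foxo3, Pdk4 and Rbl2, r was 0.804 to 0.960. The genes were chosen on the genotype difference, which this measure contains. The 2 probe sets of Cdkn1a had r = 0.397 after the set means were subtracted and 0.842 before. Ccng2 had r between -0.281 and 0.296 with every other member, and before subtraction -0.957 with Cdkn1a 98067_at, these genes standing on opposite sides of the set difference.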

How the data were processed

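Whole inner ears of newborn COUP-TFI-/- and wild-type mice (129SvEv) were profiled on 8 Affymetrix MG-U74Av2 chips. The authors deposited each chip in 2 forms, as GCRMA values on a log2 scale and as dChip values on a linear signal scale. Background correction, normalization and probe set summary are therefore theirs, and the software versions are not given in the sources used here. The table holds 12488 probe sets, and 66 Affymetrix controls among them were not used. The dChip values were put on a log2 scale after the 89 values under 1 were set to 1. Symbols came from the platform annotation (10833 probe sets with 1 symbol, 396 with several, 1193 with none).

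Duplicate chips of a pool were averaged, and the 4 pool means were fitted in R 4.3.3 with limma 3.58.1 (statmod 1.5.0 for the random block), with genotype and hybridization set as terms, and Benjamini-Hochberg adjustment over all probe sets. Tests were 2-sided and a probe set was called at an adjusted p under 0.05. The fit has 1 residual degree of freedom, and the prior of limma brought 14.3 more with GCRMA and 4.55 with dChip, so an SE reflects mainly the spread shared by all probe sets. Arrays give no counts, and the number of pools limits the precision.

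The letter, read as the set, pairs the pools, since the methods describe 1 pool per genotype in each set. The difference between sets correlated between genotypes with r = 0.752 across probe sets (0.688 with dChip). The fit was also run on simulated data, with noise modelled on duplicate chips and changes larger than those of the 7 genes. The simulation held no spread between pools, so it cannot show how far the calls above hold. The 7 genes and all gene lists were chosen with earlier results of these data known. From each pathway list the text names called genes, up to 4 more by lowest unadjusted p, and close relatives of the 7 genes, which were picked later, as were Myh8, Myh3, Tectb and Sox2. Marker lists gave up to 2 genes by mean level. Ucp1 was among these. Alternatives were dChip, quantile normalization, single chips as replicates, the methods' 2-way analysis of variance, a random block per pool, no dim probe sets, no set term (for the set comparison, no genotype term), each chip left out, a dChip floor of 16, the median of chip differences, and all probe sets of a gene for the lists.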

Additional observations from a re-analysis of the deposited data

Results flagged for a closer look

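Cdkn1a 98067_at had differences of opposite sign in the sets with GCRMA. Both COUP-TFI-/- chips were below both wild-type chips in set A (-0.06) and above them in set B (0.15), so the difference was 0.22 higher in set B. The contrast between the sets was not tested. With dChip it was 0.01, and the COUP-TFI-/- chips were higher in both sets.

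In none of the 32 groups of 4 chips (8 probe sets, 2 genotypes and 2 normalizations) did a single chip stand apart from the other 3 by Dixon's criterion. Each group holds the duplicate chips of 2 pools, so this criterion cannot show a whole pool that stands apart.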

How the results depend on the processing

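Calls at an adjusted p under 0.05 depended on the fit. The 13 genotype calls became 1 with dChip, 2 after quantile normalization, 159 with single chips as replicates, 1 with the methods' 2-way analysis of variance and 27 with the pool as a random block. Without the replicate block, that is with the set term dropped from the paired fit, there were 0 (38 at an unadjusted p under 0.05, limma). With each chip left out there were 1 to 54, the lowest without COUP-TFI-/- chip A1 and the highest without COUP-TFI-/- chip B1; the other counts past 1.5 times were 22, 2 and 3 without wild-type chips A1, A2 and B1. The 3205 set calls became 1449 with dChip, 5731 with single chips and 5054 with the random block, and 2046 to 3309 with each chip left out, the lowest without COUP-TFI-/- chip A1. The 4 called glucocorticoid-responsive genes and the 2 called muscle markers became 0 each with dChip (8 and 7 at an unadjusted p under 0.05). With all probe sets of a gene, 5 glucocorticoid-responsive probe sets were called, and the 7 lists without calls stayed at 0 there and with dChip. Zbtb16 was called under 11 of 15 alternatives, and Fkbp5 and Sult1a1 under 8 and Mt2 under 7, with differences above 0 in all. Myh8 and Myh3 were called under 8 each, Ucp1 under 9 and Nr2f1 under 14, not without the block.

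Ddit4, Sesn1, Foxo3, Pdk4, Rbl2 and both Cdkn1a probe sets kept a genotype difference above 0 under the 10 alternatives that could move it (dChip, quantile normalization and each chip left out), and Ccng2 under 9, with -0.001 without COUP-TFI-/- chip A2. The median of chip differences equals the mean here by construction, and a dChip floor of 16 touches none of these probe sets. The genes were chosen on this difference, so a kept sign is a description. Where both COUP-TFI-/- chips lay above both wild-type chips in each set, leaving out 1 chip cannot reverse the sign. With GCRMA this holds for all but Cdkn1a 98067_at, which had -0.06 in set A, and Ccng2. Ddit4 ranged over 0.60 to 0.76, Sesn1 0.58 to 0.70, Foxo3 0.37 to 0.48, Pdk4 0.33 to 0.46, Rbl2 0.19 to 0.31, Cdkn1a 94881_at 0.13 to 0.26 and 98067_at 0.03 to 0.07, and Ccng2 -0.001 to 0.05. The lowest Cdkn1a values came without wild-type chip B2 (94881_at) and without wild-type chip B1 (98067_at). The set difference kept its sign for each probe set under the 10 of 15 alternatives that could move it, and the other 5 alter the p-value alone. It was called for Cdkn1a 98067_at under 14 (not with dChip, adjusted p = 0.073), for 94881_at under 12 and for Ddit4 and Ccng2 under 11 each. In the set comparison the fit without the block drops the genotype term, and there Ddit4 had an adjusted p of 0.34 and 94881_at of 0.052 (limma). Leaving out wild-type chip B1 raised the adjusted p of Ddit4, Cdkn1a 94881_at and Ccng2 to 0.075, 0.094 and 0.056, and leaving out COUP-TFI-/- chip A1 raised those of Ddit4 and Ccng2 to 0.065 and 0.054. Ddit4 also lost its call without wild-type chip A2 (0.062), and Ccng2 with quantile normalization (0.061). Sesn1 was called with the 2-way analysis of variance alone (0.049) and Rbl2 with single chips alone (0.037). The causes were not tested. With 2 pools per genotype and 2 pools per set, differences near the 0.09 SD between duplicates cannot be resolved. Larger ones can also go uncalled, as did the genotype difference of Lpin1 (0.49, SE 0.10, adjusted p = 0.19, limma).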
